A study of Mus musculus with 16 samples.

Results

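Reference genes are genes whose transcripts are taken to be constant, so that quantitative PCR can divide other transcripts by them. The 7 considered here were Gapdh, Hprt, Tbp, Ppia, Ywhaz, Gusb and Tfrc. The probe sets taken were those whose annotation names 1 of these genes and no other, including the control probe sets of Gapdh and Tfrc that the array carries for RNA quality. They made 21 of 45101 probe sets and stood for 6 of 18194 genes that have a probe set of their own. The 1 probe set of Ppia is also annotated to another gene, so no value is given for it. For Gapdh only the 3 control probe sets were used, since its regular probe sets are shared with other genes.

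All 16 arrays measured total RNA of cultured E14tg2a cells, a mouse embryonic stem cell line, and the labels call the arrays of a group technical replicates. The 8 amplified arrays started from a dilution to 10 pg, of the order of the RNA in a single cell, whose cDNA was made and amplified with a PCR method called V1V3. The 8 nonamplified arrays started from 5 µg, labelled without that step. The groups thus differ in RNA amount and in amplification together, and p-values measure only the spread between technical replicates. The comparison asks whether the PCR method keeps the measured level of each reference gene.

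The 7 genes come from unrelated pathways, which is why they are often combined in a panel. Gapdh is a glycolytic enzyme, Hprt recycles purine bases, Gusb is a lysosomal glucuronidase and Tfrc is the transferrin receptor, through which cells take up iron. Tbp binds the TATA box for RNA polymerase, Ppia is the prolyl isomerase cyclophilin A, and Ywhaz is the zeta form of the 14-3-3 proteins, adaptors that bind phosphorylated proteins. E14tg2a is a special case for this panel. As background from outside the labels, the line was selected in thioguanine for the loss of Hprt, and is known to carry a deletion of the promoter and first exons of that gene.

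The reference promoter of Hprt is shown because it is the stretch that this line is known to lack. It lies at chrX:52987828-52988127 on the plus strand of GRCm38.p6, from RefSeq, mostly upstream of the start of the gene, with GGGCGG on either strand in capitals.
Hprt promoter: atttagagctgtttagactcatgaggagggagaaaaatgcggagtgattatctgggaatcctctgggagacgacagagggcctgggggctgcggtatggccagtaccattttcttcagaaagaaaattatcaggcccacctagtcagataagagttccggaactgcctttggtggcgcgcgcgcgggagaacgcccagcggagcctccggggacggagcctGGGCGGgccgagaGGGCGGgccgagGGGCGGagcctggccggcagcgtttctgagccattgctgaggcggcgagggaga
The motif GGGCGG occurs 3 times in this window, and 35.7% of 32851 promoter windows of the same length hold it at least once. TATAAA, searched on both strands, is not in these letters and is found in 13.6% of the windows. GC content is 61.0%, against a median of 52.7% over all windows.

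All 10 stem cell markers examined, among them Pou5f1, Nanog and Sox2, lay above the array median on all 8 nonamplified arrays, with mean intensities from 573 to 8422. Of fibroblast feeder, primitive endoderm and blood markers, 1 of 8, 1 of 5 and 2 of 5 did so, with mean intensities no higher than 82.0. Summed intensity of the stem cell markers was 30475 to 32105 on nonamplified and 39058 to 42817 on amplified arrays, although Pou5f1, Nanog, Fgf4 and Esrrb had lower amplified means (Nanog 276 against 1776) and Utf1 a much higher one (8761 against 1814). The feeder markers summed to 290.2 to 387 and 232 to 357, the endoderm markers to 173 to 236 and 284 to 357, and the blood markers to 215 to 321 and 292 to 450.4. Their part in the results below was not tested. Median intensity was between 33.9 and 36.7 on amplified arrays and between 49.8 and 53.9 on nonamplified arrays. Of the 21 probe sets, 17 passed the filter on dim probe sets in the fit across all probe sets, 1 of Tbp did not, and the 3 control probe sets of Tfrc were tested in a fit added after the data were examined. Differences below are log2(intensity + 16), amplified minus nonamplified, with the SE of limma and p-values adjusted by Benjamini-Hochberg over all tested probe sets.

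Most of these probe sets differed between the groups. Of the 17 tested, 3 were higher in the amplified group, 11 lower, and 3 missed an adjusted p of 0.05 by limma, whereas 57.5% of all 27025 tested probe sets were called, 24.7% as higher and 32.8% as lower. The values of the groups did not overlap for 11 probe sets, against 33.6% of all tested. In 10 of them the amplified arrays lay below (18.8% of all tested) and in 1 above (14.8%). The median log2 difference was −1.46 over the 17 and −0.17 over all tested probe sets. These 17 stand for only 6 genes, and 7 of them belong to Ywhaz, so they are not independent. The median over all tested probe sets moved with the scaling of the arrays, to −0.027 under quantile normalization, to 0.24 with arrays centred on their medians, to 0.047 with only the brighter 50% used for scaling, and to −0.59 when scaled on the hybridization controls.

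**Figure D1:**
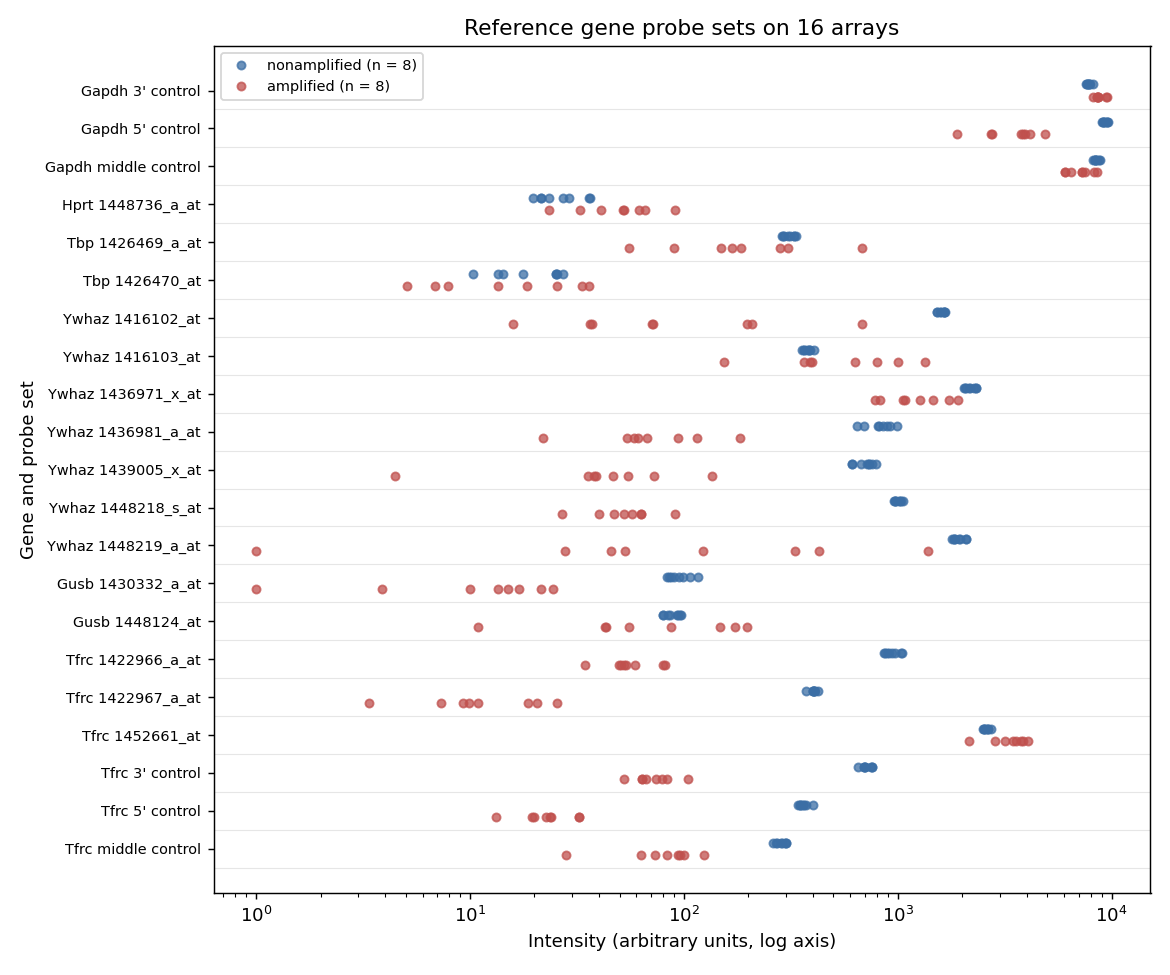
Intensity of each of the 21 reference gene probe sets on the 8 nonamplified (blue) and 8 amplified (red) arrays, on a log axis. Each point is 1 array. Blue points lie closer together than red points in each row on the log axis, least so for Hprt and 1426470_at of Tbp, and the red points of the 3′ control of Gapdh are also close together. In most rows the red points lie mostly to the left.

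Hprt, the purine salvage enzyme, was at the level of dim probe sets. Its 1 probe set, 1448736_a_at, had intensities of 19.6 at the lowest, 25.4 at the median and 36.4 at the highest on nonamplified arrays, under the median of all probe sets on each of the 8. On amplified arrays it had 23.5, 52.2 and 90.5, above the array median on 6 of 8. The groups overlapped, with 6 amplified arrays above the highest nonamplified array. The log2 difference of 0.63 (SE 0.18) was called higher (limma adjusted p = 0.00551), but not when scaled on the hybridization controls (0.21, limma adjusted p = 0.403) or with weights per group (limma adjusted p = 0.0506). At such intensities the pseudocount of 16 understates a fold change. The mean intensity of Hprt was above the filter cut of 33.7 only on amplified arrays (52.5 against 26.8). Hprt thus entered the test through its amplified arrays, and was also called higher with no filter. Where the probes lie relative to the deletion was not examined.

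Gapdh, the glycolytic enzyme, changed according to the end of the transcript that was probed. Its 3′ control probe set had intensities of 7565, 7785 and 8161 (lowest, median and highest) on nonamplified arrays and 8210, 8620 and 9480 on amplified arrays. The amplified arrays were all the higher, although by 1.12-fold in the mean. The middle control probe set had 8203, 8419 and 8837 without amplification and 6068, 7302 and 8503 with it, where 6 of 8 amplified arrays lay below all nonamplified arrays. At the 5′ control probe set the values were 9041, 9253 and 9604 against 1897, 3820 and 4898. Here the groups were far apart, and the lowest amplified array was number 4.

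From 3′ to 5′ the log2 differences of Gapdh were 0.17 (SE 0.062, limma adjusted p = 0.0295), −0.25 (SE 0.084, limma adjusted p = 0.0188) and −1.46 (SE 0.16, limma adjusted p = 5.07e-07). The direction at the 3′ end turned to −0.41 under quantile normalization and to −0.25 when scaled on the hybridization controls, and the middle turned to 0.16 with arrays centred on their medians, whereas the 5′ end was lower under each alternative run. The call at the 3′ end was lost when nonamplified array 5, 6 or 8 was left out (limma adjusted p = 0.0509, 0.0532 and 0.0506), with a pseudocount of 1 (0.0569), with the replicate block (0.105) or with weights per group (0.187). That of the middle was lost with weights (0.0701) and when only the brighter 50% was used for scaling, where the difference was −0.030 (limma adjusted p = 0.784).

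The ratio of the intensities at both ends within an array does not depend on a scaling factor of the array. The 3′ intensity of Gapdh was 0.824, 0.837 and 0.850 times the 5′ intensity on nonamplified arrays (lowest, median and highest), and 1.92, 2.28 and 4.54 times on amplified arrays. The ratio was therefore above every nonamplified array on 8 of 8 amplified arrays. Its log2 value was −0.26 ± 0.015 (SD, n = 8) and 1.37 ± 0.40 (SD, n = 8), a difference of 1.63. The exact permutation test (2-sided) gave p = 0.000155, the lowest value possible with 12870 regroupings. The ratio of 3′ to middle rose as well, by 0.42 on the log2 scale (exact permutation p = 0.000155).

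**Figure D2:**
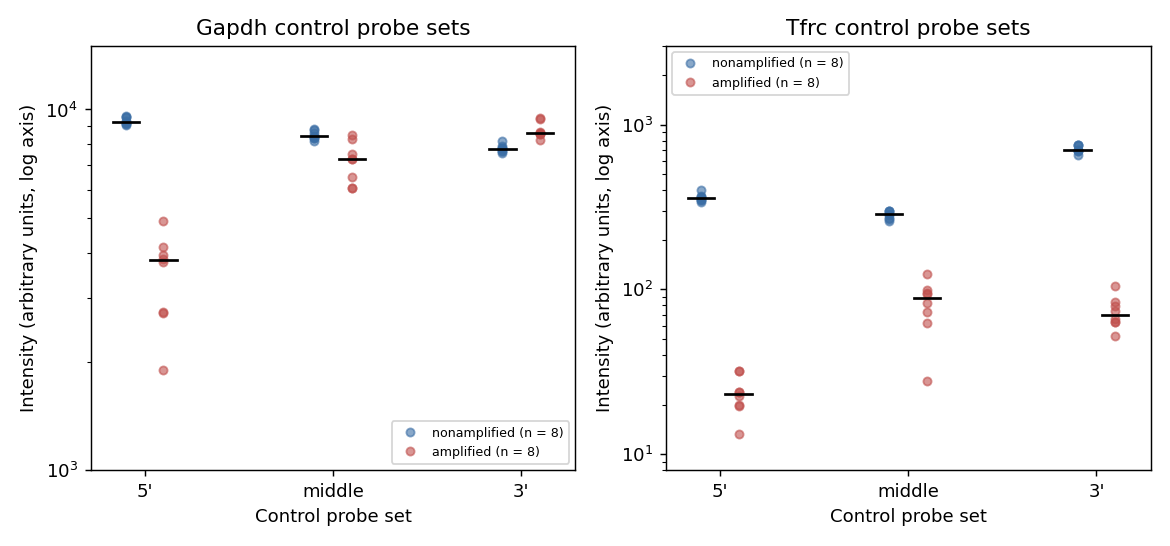
Intensity at the 5′, middle and 3′ control probe sets of Gapdh and Tfrc on nonamplified (blue) and amplified (red) arrays, on log axes. Points are arrays and black bars are medians. For Gapdh the groups part towards the 5′ end, while for Tfrc they are apart at all 3 positions and closest in the middle.

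Gusb, the lysosomal enzyme, had low intensities and probe sets that differed from each other. Probe set 1430332_a_at had 83.2, 92.7 and 117 on nonamplified arrays and 1, 14.3 and 24.4 on amplified arrays, where 1 is the lowest value the table holds. The groups did not overlap, with a log2 difference of −1.97 (SE 0.16, limma adjusted p = 1.84e-08). The mean of this probe set was above the filter cut of 33.7 only on nonamplified arrays (95.5 against 13.3). It thus entered the test through its nonamplified arrays, and was also called lower with no filter. The direction was the same at each pseudocount, but the size ran from −3.09 at 1 to −1.05 at 64, and the mean intensities differed by 7.18-fold. Probe set 1448124_at had 80.0, 89.5 and 96.9 without amplification and 10.9, 71.1 and 196 with it. Its amplified arrays lay on both sides, 4 below and 3 above all nonamplified arrays, so its difference of −0.21 (SE 0.35, limma adjusted p = 0.638) hides a scatter of 18.1-fold between the lowest and the highest array.

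Tbp, the TATA-binding protein, varied widely between amplified arrays. Probe set 1426469_a_at had 289, 310.0 and 333 on nonamplified arrays and 55.7, 176 and 681 on amplified arrays. Of the amplified arrays, 6 lay below and 1 above the nonamplified range. The difference of −0.67 (SE 0.34) did not pass (limma adjusted p = 0.107). It passed without amplified array 6, the one with the value of 681 (−0.92, limma adjusted p = 0.00718), under quantile normalization (−0.71, limma adjusted p = 0.0481), when scaled on the hybridization controls (−1.09, limma adjusted p = 0.0221) and with weights per group (limma adjusted p = 0.0424). The other probe set of Tbp, 1426470_at, was left out by the filter, with mean intensities of 19.9 ± 6.70 and 18.3 ± 12.1 (SD, n = 8 each).

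Ywhaz, the 14-3-3 adaptor, had 7 probe sets, of which 6 were lower and 1 did not pass. The log2 differences ran from −3.89 to 0.47. Probe set 1448218_s_at had intensities of 961, 999 and 1062 on nonamplified arrays and 26.8, 54.9 and 91.0 on amplified arrays. Probe set 1416102_at had 1525, 1614 and 1657 against 15.8, 71.3 and 680. Both lost most of their signal. From the lowest to the highest amplified array the intensities differed 3.39-fold at the first and 43.0-fold at the second. Probe set 1448219_a_at had 1790, 1890 and 2082 against 1, 88.0 and 1386. Probe set 1436981_a_at had 646, 834 and 992 against 21.8, 64.1 and 184, and 1439005_x_at had 609, 725 and 787 against 4.45, 42.6 and 136. At none of these did an amplified array reach the nonamplified range.

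Probe sets 1416102_at, 1448218_s_at and 1448219_a_at had −3.87 (SE 0.49), −3.89 (SE 0.14) and −3.87 (SE 0.69), and probe sets 1436981_a_at and 1439005_x_at had −3.25 (SE 0.25) and −3.56 (SE 0.28). Each of these 5 was called lower (limma adjusted p from 7.01e-13 to 0.000139), and each stayed so in every alternative and with each array left out.

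The other probe sets of Ywhaz were less affected. Probe set 1436971_x_at had 2042, 2173 and 2328 on nonamplified arrays and 784, 1177 and 1913 on amplified arrays, a mean 1.72-fold lower (log2 difference −0.84, SE 0.17, limma adjusted p = 0.000345). Probe set 1416103_at had 358, 379 and 406 without amplification and 154, 514 and 1339 with it. Its amplified arrays surrounded the nonamplified range, with 4 above it and 1 below. The difference of 0.47 (SE 0.32) did not pass (limma adjusted p = 0.230), but did without amplified array 7, its lowest (0.71, limma adjusted p = 0.0218), and with arrays centred on their medians (0.88, limma adjusted p = 0.0273).

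Single amplified arrays also ranked differently from one Ywhaz probe set to another, a pattern chosen after the values were seen. Amplified array 5 was the highest at 1448219_a_at, with an intensity of 1386, and at 1416102_at, with 680. Amplified array 2 was the lowest at both, with intensities of 1 and 15.8. At 1436981_a_at and 1439005_x_at these extreme arrays changed places, with array 2 the highest (184 and 136) and array 5 the lowest (21.8 and 4.45). The order of the other arrays was not reversed as a whole.

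**Figure D3:**
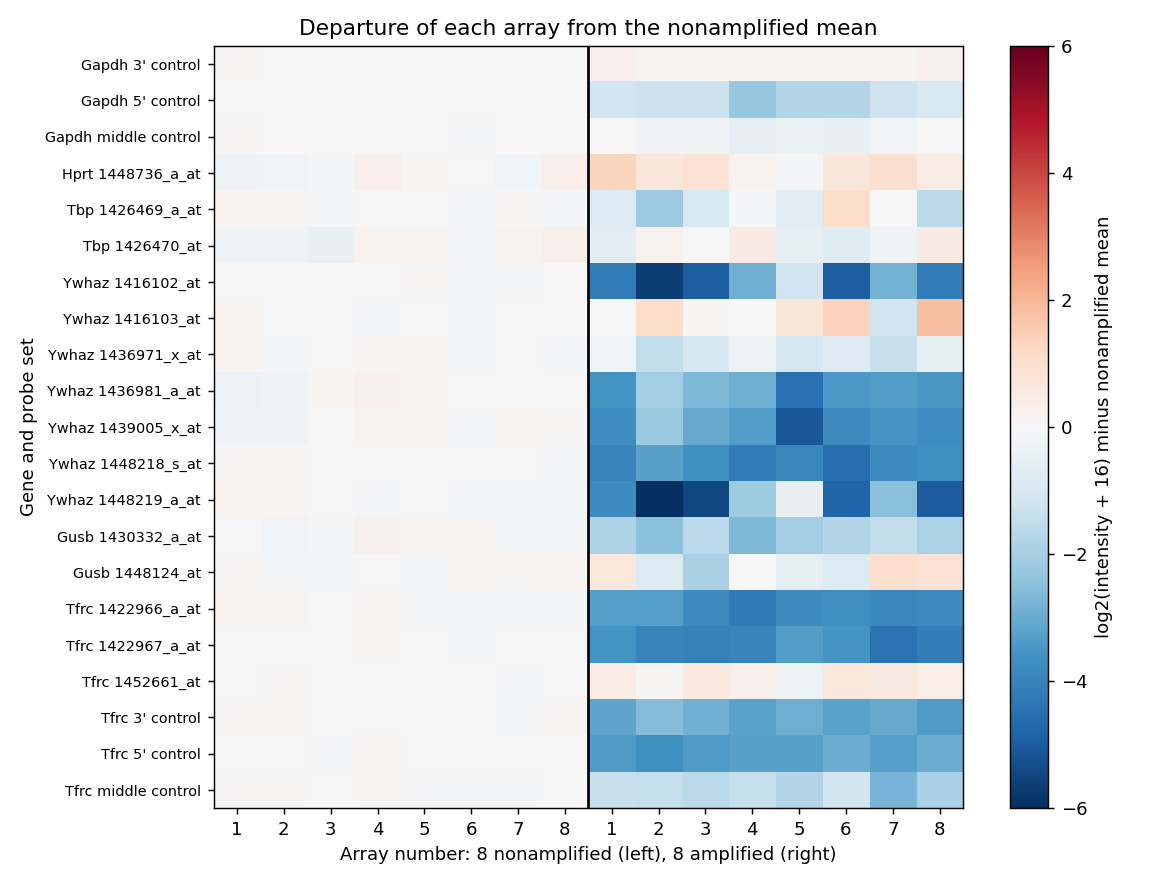
Departure of each array from the nonamplified mean of that probe set, in log2(intensity + 16), with nonamplified arrays on the left and amplified arrays on the right. Red is higher and blue is lower. Most amplified columns are blue for Ywhaz and Tfrc, and amplified arrays 2 and 5 have opposite shades at 1448219_a_at and 1439005_x_at of Ywhaz.

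Tfrc, the transferrin receptor, was lower at 5 of its 6 probe sets and higher at 1. Probe set 1422966_a_at had 860, 925 and 1042 on nonamplified arrays and 34.6, 53.0 and 81.4 on amplified arrays, a mean 16.3-fold lower (log2 difference −3.73, SE 0.12, limma adjusted p = 1.64e-13). Probe set 1422967_a_at had 373, 404 and 425 without amplification and 3.39, 10.4 and 25.6 with it (log2 difference −3.88, SE 0.14, limma adjusted p = 3.81e-13). At both, no amplified array came near the nonamplified range. The amplified mean of 1422967_a_at, 13.2, was below the filter cut of 33.7, so this probe set entered the test through its nonamplified arrays. It was also called lower with no filter.

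Probe set 1452661_at of Tfrc differed less. It had 2493, 2586 and 2718 on nonamplified arrays and 2152, 3511 and 4082 on amplified arrays. Of the amplified arrays, 7 lay above the nonamplified range and array 5 below it. The log2 difference was 0.35 (SE 0.11, limma adjusted p = 0.0160), but −0.49 under quantile normalization (limma adjusted p = 0.000798) and −0.072 when scaled on the hybridization controls (limma adjusted p = 0.726). The range over the probe sets of this 1 gene was thus 4.23 on the log2 scale, and that of Ywhaz was 4.36.

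The 3 control probe sets of Tfrc did not follow the order of those of Gapdh. From 3′ to 5′ their log2 differences were −3.04 (SE 0.10), −1.67 (SE 0.18) and −3.27 (SE 0.099), each called lower in the added fit (limma adjusted p no higher than 5.12e-07), with the smallest decrease in the middle. The log2 ratio of 3′ to 5′ was 0.95 ± 0.099 (SD, n = 8) without amplification and 1.18 ± 0.47 (SD, n = 8) with it (exact permutation p = 0.210). It was above every nonamplified array on 5 of 8 amplified arrays. That ratio depended on the pseudocount, with a difference of 0.65 at a pseudocount of 1 (exact permutation p = 0.00932) and −0.22 at 64 (exact permutation p = 0.0382). Amplified intensities at the 5′ end were between 13.3 and 32.2. Without amplified array 8 the difference was 0.33 (exact permutation p = 0.0342). The ratio of 3′ to middle fell by 1.37 (exact permutation p = 0.000155), opposite to Gapdh.

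**Figure D4:**
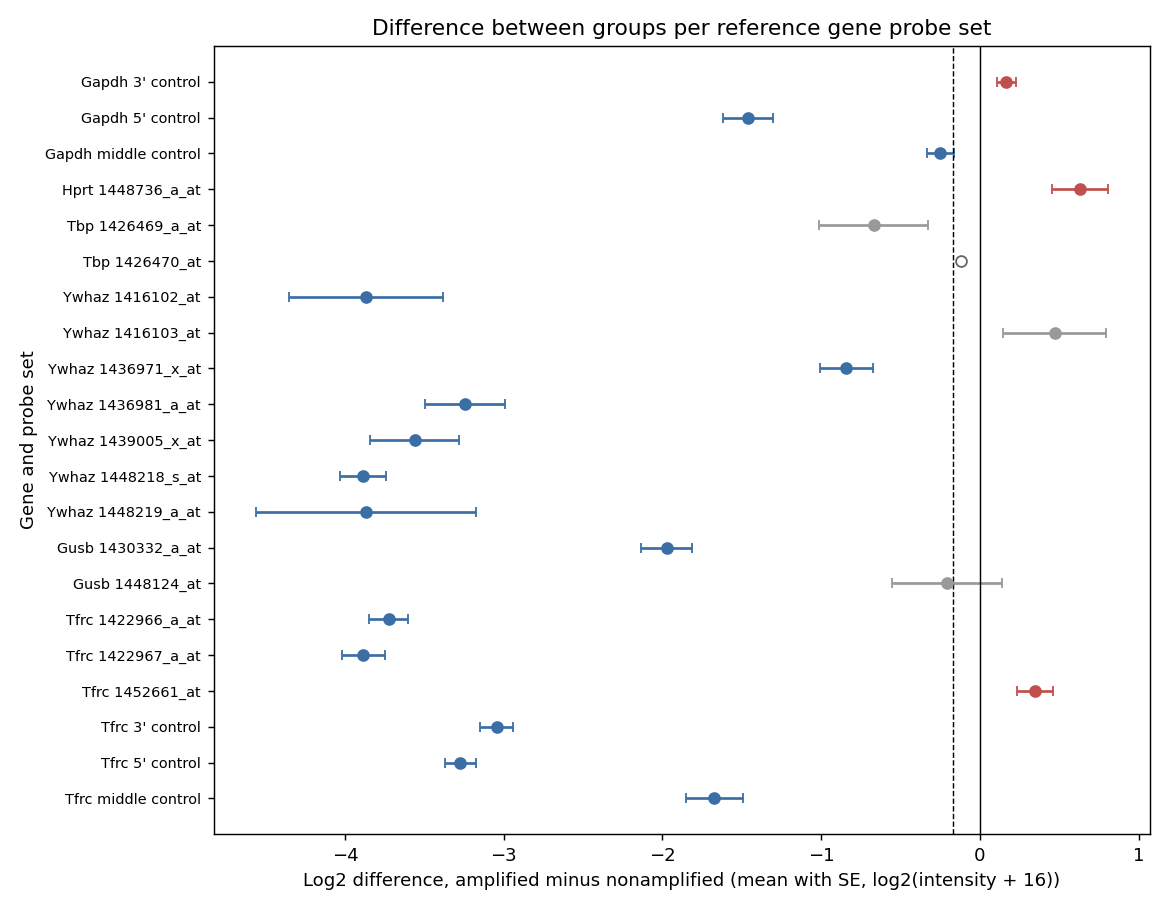
Log2 difference between the groups for each probe set, amplified minus nonamplified, with the SE of limma. Red was called higher, blue lower, grey did not pass, and the open point was left out of the test. The dashed line is the median of −0.17 over all tested probe sets. Probe sets of Ywhaz and of Tfrc run from below −3 to above 0.

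Arrays of the amplified group agreed less with one another. The SD in log2 units was larger on amplified than on nonamplified arrays at all 21 probe sets, from 0.071 at the 3′ control of Gapdh to 2.07 at 1448219_a_at of Ywhaz. Over all tested probe sets the median SD was 0.51 and 0.13. A limma test of the absolute deviations from the group mean called the spread larger in 12 of the 17 tested, smaller in 0, and 5 missed the threshold, whereas 52.8% of all tested probe sets were called larger and 0.418% smaller. The 5 that did not pass were the 3′ control of Gapdh (limma adjusted p = 0.474), Hprt (0.161), 1436981_a_at and 1439005_x_at of Ywhaz (0.0579 and 0.0813) and 1422966_a_at of Tfrc (0.116). With deviations taken from the group median, 7 were called. The calls of the middle control of Gapdh, 1430332_a_at of Gusb, 1448218_s_at of Ywhaz and 1452661_at of Tfrc were lost with some single arrays left out, and those of 1436981_a_at and 1439005_x_at of Ywhaz were gained.

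Agreement between reference genes was described with M, the SD over 8 arrays of the log2 ratio of a gene to another, averaged over the other 5 genes. M is the usual score for choosing a panel for quantitative PCR, lower being more stable. It was computed on log2(intensity + 16), so for dim members such as Hprt and Gusb it also carries the pseudocount. Each gene was represented by its brightest probe set without amplification, which for Gapdh is the 5′ control. On nonamplified arrays M was 0.12 for Gapdh, Ywhaz and Tfrc, 0.13 for Tbp, 0.16 for Gusb and 0.23 for Hprt. On amplified arrays it was 0.51 for Tfrc, 0.57 for Gusb, 0.58 for Hprt, 0.65 for Gapdh, 0.71 for Ywhaz and 1.07 for Tbp. The order on amplified arrays depended on the probe sets chosen. With the brightest probe set over both groups, M was 0.62 for Tfrc, 0.64 for Gapdh, 0.71 for Hprt and Ywhaz, 1.10 for Gusb and 1.11 for Tbp, so that Gusb moved close to Tbp and Hprt fell behind Gapdh. On nonamplified arrays Hprt had the highest M with both choices.

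In each of the 15 pairs the ratio varied more on amplified arrays. The pair SD was between 0.029 and 0.27 without amplification and between 0.32 and 1.30 with it. The steadiest pair on nonamplified arrays was Gapdh with Tfrc (0.029), whose SD after amplification was 0.45. The mean ratio of a pair also moved, by 0.17 on the log2 scale for Tbp with Ywhaz and by 2.61 for Hprt with Gusb. No test was made of these pairs.

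Used as the single reference, the genes gave different pictures of the same data. By construction, each median after scaling is that of the values as deposited (−0.17) less the reference's own log2 difference. The shifts of the median thus restate the differences of the members given above and are no further result. Dividing every array by Gusb moved the median of all tested probe sets to 1.80 and gave 20720 higher and 1072 lower calls (80.6% called). Dividing by the 5′ end of Gapdh moved it to 1.29, with 17516 higher and 1890 lower (71.8% called). Ywhaz gave a median of 0.67, with 12781 higher and 3461 lower (60.1% called), and Tbp gave 0.50, with 7004 and 2723 (36% called). On the other side, Tfrc gave −0.52, with 3988 higher and 11739 lower (58.2% called), and Hprt gave −0.80, with 2570 and 13882 (60.9% called). The share of higher calls thus ran from 15.6% with Hprt to 95.1% with Gusb, against 43.0% for the values as deposited. Both of these references were dim. Hprt was under the array median on all nonamplified arrays and 1430332_a_at of Gusb had at most 24.4 on amplified arrays, so the sizes of their shifts depend on the pseudocount. At a pseudocount of 1 the median after scaling on Gusb was 2.80.

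The choice of probe set within a gene moved the median too. With the 3′ control of Gapdh in place of the 5′ control, the median became −0.34, with 5426 higher and 10495 lower calls (58.9% called). With 1448124_at of Gusb in place of 1430332_a_at it became 0.037, with 3681 and 4176 (29.1% called). The mean of all 6 genes gave 0.49 with the first choice of probe sets, with 11915 and 4441 (60.5% called), and −0.075 with the second, with 6625 and 7499 (52.3% called).

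**Figure D5:**
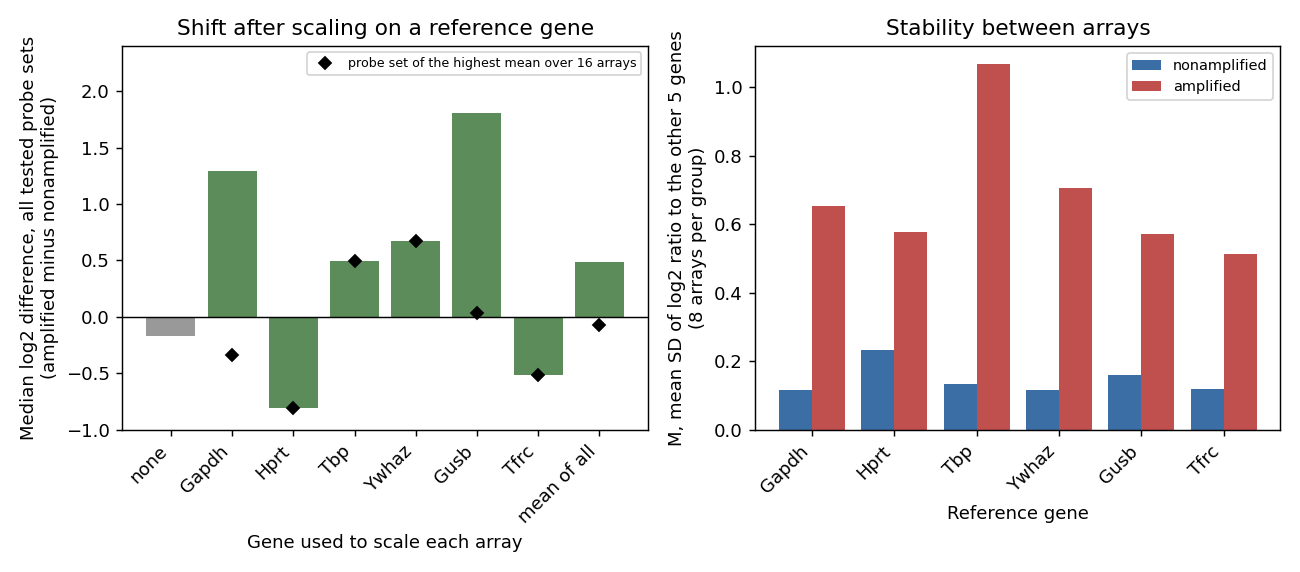
Left, median log2 difference over all tested probe sets after each array was scaled on 1 reference gene, with bars for the brightest probe set without amplification and diamonds for the brightest over both groups. Right, the M score of each gene in both groups. Bars run from −0.80 for Hprt to 1.80 for Gusb, and M is larger on amplified arrays for every gene.

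Other genes that serve as references for quantitative PCR were compared in the same fit, each by its brightest probe set without amplification. Of 52 genes listed, 42 were tested. In the amplified group 14 were higher and 15 lower, and 13 missed the threshold, whereas limma called 53.7% of all 13661 genes, 23.8% as higher and 29.9% as lower. Their median difference was 0.078, against −0.15 over all genes. Under quantile normalization the list had 5 higher and 25 lower. Their SD between amplified arrays was larger than between nonamplified arrays in 39 of 42, with a median of 0.34 against 0.054.

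Among the probe sets taken, that of cytoplasmic actin, Actb, differed most. Its means were 7514 ± 161 on nonamplified and 503 ± 449 on amplified arrays (SD, n = 8 in both). The log2 difference was −4.23 (SE 0.34, limma adjusted p = 1.66e-08). Each gene on the list stands by 1 probe set, whose value need not hold for the gene. Probe sets of Tfrc ran from −3.88 to 0.35, and those of Ywhaz from −3.89 to 0.47. Canx, a chaperone of the endoplasmic reticulum, had a log2 difference of −2.83 (SE 0.43, limma adjusted p = 2.52e-05). Ywhaq, another 14-3-3 gene, had −2.25 (SE 0.37, limma adjusted p = 6.47e-05). Reep5 had 1.56 (SE 0.70) and did not pass (limma adjusted p = 0.0671). The smallest differences were those of Ppib, a relative of cyclophilin A, with 0.012 (SE 0.37), of the elongation factors Eef1a1, with −0.045 (SE 0.060), and Eef2, with 0.063 (SE 0.16), and of the RNA-binding protein Pum2, with 0.093 (SE 0.25). Of these, Eef1a1 alone was also steady between amplified arrays, with a log2 SD of 0.059, while Ppib had 1.10. Among the 6 other 14-3-3 genes on the list, 5 were lower, with differences down to −2.25, and Ywhab had 0.53 (limma adjusted p = 0.153). Among its 6 ribosomal protein genes, 4 were higher and 2 lower, with differences from −0.53 to 0.73. Both groups were picked after the values were seen, and are set beside the 29.9% lower and 23.8% higher of all genes as a description only.

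For each member, the gene whose probe set ran most alike over the 16 arrays was sought among the other named probe sets. The 5′ control of Gapdh ran most like Rps15, a ribosomal protein (Pearson r = 0.99 over 16 arrays and 0.95 over the 8 amplified arrays). For Gusb it was Igf2r, which carries lysosomal enzymes, with 0.98 and 0.86. For Ywhaz it was Mettl2, with 0.97 and 0.92, for Tfrc Tmem147, with 0.95 and 0.93, for Hprt Cds2, with 0.94 and 0.97, and for Tbp Ip6k2, with 0.93 and 0.95. Over the 8 nonamplified arrays alone, r of the same pairs was 0.84 for Gapdh, 0.50 for Hprt and 0.26 for Ywhaz. It was 0.049 for Tfrc, −0.020 for Gusb and −0.85 for Tbp, so the likeness did not always hold within that group. Each coefficient over 16 arrays was the highest of 22825 to 22831, over arrays that fall into 2 groups, and is given as a description only.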

How the data were processed

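The labels give the cells, the RNA amount and the labelling, biotinylated cRNA by an Affymetrix assay. The authors deposited linear intensities, 1 for each probe set of an array, none below 1. No source used here names the software that summarised and scaled them, or a genome build. Annotation came from the platform table supplied with the series, and sequences from RefSeq (GRCm38.p6), whose promoters cover 6 of the 7 genes. Values were taken as log2(intensity + 16). Probe sets whose mean over all 16 arrays did not exceed the 40th percentile (intensity 33.7) were left out. So were 61 of 64 control probe sets, which leaves 27025. Groups came from the titles. The number of arrays limits the precision.

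Limma 3.58.1 (R 4.3.3; lmFit, eBayes, 2-sided) compared the groups, with Benjamini-Hochberg adjustment over all tested probe sets. Spread was tested likewise on absolute deviations from the group mean, scaled for n = 8. End ratios were compared by exact permutation tests (scipy 1.17.1). These steps were tested on simulated data. Figures used matplotlib 3.10.9. The members, lists and tests were chosen with earlier results of these data known. Named were all members with every probe set, the likest gene per member, Actb, and the 4 largest and 4 smallest absolute differences among the other references. Alternatives were other pseudocounts, scalings, filters, weights, the replicate block, probe set choices, and each array left out.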

Additional observations from a re-analysis of the deposited data

Results flagged for a closer look

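Among 42 groups of 8 arrays, a test for a single outlying array (Dixon's) pointed to 1, where chance points to about 1 in 20 groups. At probe set 1422967_a_at of Tfrc, nonamplified array 6 was the lowest, with an intensity of 373 against 400 for the nearest array. The gap was 0.528 of the range of the group on the scale of log2(intensity + 16), just over the critical value, and 0.513 on the scale of the intensities, which is below it.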

How the results depend on the processing

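Of the 17 tested member probe sets, 11 kept their direction and their side of the threshold, or did not pass in any setting, under 12 or 13 alternatives and with each of the 16 arrays left out. The count of lower calls, 11, stayed within 11 to 12 when an array was left out, and that of higher calls, 3, within 2 to 4. Higher calls numbered 2 at a pseudocount of 1, 2 with the 60th percentile filter, 2 with the replicate block, 1 under quantile normalization, 1 with weights per group and 0 when scaled on the hybridization controls. The replicate numbers did not pair the arrays (correlations of deviations from −0.0078 to 0.018 over 8 pairs, with 3 of 8 amplified arrays closest to their own number). The replicate block gave 6359 higher and 8499 lower calls over all probe sets, against 6678 and 8868. Reversals of single probe sets were the 3′ control of Gapdh (−0.41 under quantile normalization and −0.25 on the hybridization controls), its middle control (0.16 with arrays centred) and 1452661_at of Tfrc (−0.49 and −0.072). Probe set 1448124_at of Gusb did not pass in any of these settings and ran from −0.63 to 0.20. Spread was called larger in 12, in 9 to 14 with an array left out, and in 7 with deviations from the group median. The end ratio of Gapdh stayed within 1.51 to 1.69 with an array left out, and that of Tfrc within 0.10 to 0.33. The ratio of Tfrc was 0.65 at a pseudocount of 1, −0.22 at 64 and −1.37 with the middle probe set. M of Tbp was 1.25 at a pseudocount of 1. With the brightest probe set over both groups, the median of all tested probe sets was −0.34 after scaling on Gapdh and 0.037 on Gusb. It was −0.075 on the mean of all. With the brightest probe set of Gusb without amplification, the median was 2.80 at a pseudocount of 1. Other reference genes numbered 5 higher and 25 lower under quantile normalization and 10 lower with arrays centred. Except where an alternative tests fewer probe sets, the cause of these changes was not tested.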
